A study of Mus musculus with 47 samples.

Results

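Cranial neural crest cells of the second pharyngeal arch (PA2) of the mouse embryo were compared at E11.5 (E stands for embryonic day) with the crest cells of 3 facial regions of the same age. These were the frontonasal process (FNP) and, from the first arch, its maxillary (Mx) and its mandibular (Md) part. The libraries were chosen by their labels alone, as those of age E11.5 and genotype WT whose subpopulation is PA2, FNP, Mx or Md. Each of these 4 groups holds 3 libraries, so the comparison uses 12 of the 47 libraries of the series, 3 of PA2 against 9 others. The labels list no treatment or further allele for these wild-type embryos, whose tissue was dissected, dissociated with trypsin and sorted by FACS before total RNA was sequenced. The labels name neither a mouse strain nor the reporter or Cre line behind the sort. They do not say whether replicates came from separate embryos or litters. The p-values therefore reflect only how far libraries spread within their groups, and this spread may be technical. It was estimated over all 47 libraries in 16 groups, those of other genotypes and ages included. Another 3 PA2 libraries of E11.5 carry the genotype Control, and they stay outside the comparison except where they are named. Wild-type libraries of E10.5 (3 of PA2 and 8 of FNP, Mx and Md) give the same contrast 1 day earlier with no library in common.

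Neural crest cells leave the dorsal neural tube, fill the facial processes and pharyngeal arches, and form most of the cartilage, bone and connective tissue of the face. The crest in front of the second arch is largely free of Hox gene activity. Low levels of some Hox genes were found there in these libraries, such as Hoxd1 in Mx and Hoxd8 in Md (below). The second arch carries Hox genes of the first paralogous groups. Hoxa2 is the selector of second-arch identity: without it the second arch forms copies of first-arch skeletal elements, and Hox proteins bind DNA together with partners of the Pbx and Meis families.

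The 12 libraries held 24784054 to 37706046 counts each, and mitochondrially encoded genes took 11.68% to 19.55% of them. In the first principal component of the 1000 most variable genes (59.4% of their variance) PA2 lay at one end, FNP at the other, and Md was the group nearest to PA2. FNP replicate 3 stood apart within its group in raw counts. It had the lowest mitochondrial share, and its counts differed from those of the other FNP libraries by 71.3 and 65.3 chi-square units per degree of freedom. All other pairs of one group had 9.15 to 32.7. Mitochondrial genes are part of these counts, so the 2 measures are not independent. In log levels its mean correlation with its group was 0.9906, beside 0.9915 and 0.9913 for FNP replicates 1 and 2. Levels below are CPM (counts scaled to a common library total, with TMM factors), folds are on the log2 scale against the mean of the 3 other groups, and a gene is called at an adjusted p under 0.05 in edgeR's quasi-likelihood test. The mean of the others is taken over logs, so a group near 0 weighs as much as the rest, and a gene can be called higher although its mean CPM in PA2 is below that of the others (Hoxd1, Pitx1, Barx1 and Cyp26a1 below). Without FNP replicate 3, 3304 genes were called in place of 3635, of which 1929 were higher and 1375 lower in PA2.

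PA2 differed from the other crest populations in 3635 of 20560 tested genes (17.7%), with 1934 higher (9.41%) and 1701 lower (8.27%), with Hox genes among the largest leads and regulators of the frontonasal process among the largest deficits. Without any overlap of libraries stood 1709 called genes (8.31%). In 922 of them (4.48%) all 3 PA2 libraries lay above all 9 others, and in 787 (3.83%) all 3 lay below. A stricter group, at least 2-fold beyond the nearest of the 3 other populations, held 314 higher genes (1.53%) and 184 lower genes (0.895%). Md was the nearest population for 540 of the 922 genes that stood above (58.6%) and for 497 of the 787 that stood below (63.2%). In single contrasts PA2 differed from FNP in 5567 genes (27.1%), from Mx in 2948 (14.3%) and from Md in 1619 (7.87%). These 3 contrasts share the PA2 libraries, and the counts were not tested against each other. In bulk RNA of a sorted population, fewer cells of a type and less RNA per cell cannot be told apart.

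Both genes that mark the second arch were present in every PA2 library and at or near 0 elsewhere, in keeping with the labels. Hoxa2 (ENSMUSG00000014704, chromosome 6, 52162351 to 52165413 in GRCm38) measured 194, 199 and 183 CPM in the PA2 libraries, 0.0799, 0.129 and 0 in FNP, 0.255, 0 and 0.245 in Mx and 0.962, 1.29 and 2.49 in Md. Every PA2 library lay far above every other library, and among the others Md was highest. The log2 difference of Hoxa2 was 9.49 ± 0.22 (SE), adjusted p = 1.58e-29. Hoxa3 (ENSMUSG00000079560, chromosome 6, 52168510 to 52213336), best known for its role in the third arch, measured 34.5, 28.5 and 29.0 CPM in the PA2 libraries, 0, 0.0258 and 0 in FNP, 0, 0 and 0.07 in Mx and 0, 0.18 and 0.108 in Md. Its difference was 9.94 ± 0.32 (SE), adjusted p = 3.33e-24, and the 2 groups of libraries did not overlap. The gene model of Hoxa3 spans Hoxa4, Hoxa5, Hoxa6 and antisense transcripts, and the libraries keep no strand, so reads of these neighbours cannot be told apart from its own where they overlap. A further model on the same strand, Gm20653, overlaps both Hoxa2 and Hoxa3 and had 47.6 CPM in PA2. The split of reads between it and these genes is uncertain.

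The 250 bases before the RefSeq start of 5 genes on which the comparison turns (GRCm38.p6) are shown, 3 genes high in PA2 and 2 low in it, each with a window that holds no UTR in the GENCODE annotation of that build. The models of Hoxa2 and Pax1 in the deposited table reach further upstream and cover these windows. Capitals mark a Hox-Pbx motif (TGATNNAT, which reads ATNNATCA on the other strand) or a Meis motif (TGACAG), both searched on both strands. The windows are those of Hoxa2 (chr6:52164832-52165081, reverse strand), Hoxd8 (chr2:74704365-74704614, forward strand), Hmx1 (chr5:35388611-35388860, forward strand), Pax1 (chr2:147364744-147364993, forward strand) and Runx3 (chr4:135120395-135120644, forward strand), each written 5′ to 3′ in the direction of its gene.
Hoxa2: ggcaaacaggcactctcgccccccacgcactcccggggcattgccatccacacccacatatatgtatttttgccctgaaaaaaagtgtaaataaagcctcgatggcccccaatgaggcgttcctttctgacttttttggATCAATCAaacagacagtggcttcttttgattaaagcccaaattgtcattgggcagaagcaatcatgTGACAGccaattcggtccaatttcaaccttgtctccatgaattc
Hoxd8: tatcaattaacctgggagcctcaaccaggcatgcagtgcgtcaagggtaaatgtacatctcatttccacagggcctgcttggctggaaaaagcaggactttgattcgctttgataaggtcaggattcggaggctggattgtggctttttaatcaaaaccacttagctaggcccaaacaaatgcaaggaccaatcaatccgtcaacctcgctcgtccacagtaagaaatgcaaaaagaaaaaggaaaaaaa
Hmx1: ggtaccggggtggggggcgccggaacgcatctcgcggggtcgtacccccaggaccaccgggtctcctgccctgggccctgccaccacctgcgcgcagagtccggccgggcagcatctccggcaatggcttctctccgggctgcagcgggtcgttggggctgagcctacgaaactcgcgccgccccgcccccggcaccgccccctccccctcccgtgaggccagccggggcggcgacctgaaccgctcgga
Pax1: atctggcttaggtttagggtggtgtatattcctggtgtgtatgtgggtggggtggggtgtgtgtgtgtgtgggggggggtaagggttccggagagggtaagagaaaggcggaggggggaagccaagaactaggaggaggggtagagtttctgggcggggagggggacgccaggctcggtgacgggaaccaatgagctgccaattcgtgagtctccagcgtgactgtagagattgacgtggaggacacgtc
Runx3: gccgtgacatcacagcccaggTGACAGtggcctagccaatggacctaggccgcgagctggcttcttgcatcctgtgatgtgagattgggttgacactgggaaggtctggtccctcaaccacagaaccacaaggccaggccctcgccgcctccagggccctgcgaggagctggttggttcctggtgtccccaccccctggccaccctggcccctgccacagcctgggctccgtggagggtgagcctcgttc
The Hoxa2 window held 1 Hox-Pbx match, on the strand opposite to the gene, 111 bases before the start, and 1 Meis match 44 bases before it. That of Runx3 held 1 Meis match 229 bases before the start, and part of it (53 bases) is an exon of the noncoding gene Gm16225. The windows of Hoxd8, Hmx1 and Pax1 held neither run of letters. Among all 27018 mouse promoters of this length, 7.92% held the Hox-Pbx motif and 16% the Meis motif. For the called genes whose PA2 libraries lay above all others the shares were 5.09% and 12.8% (570 of 915 symbols had a promoter), and for those below they were 3.24% and 14.3% (525 of 783). These are matches of letters and not binding sites.

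Hox genes of the first 4 paralogous groups were called higher in PA2 in 11 of 12 cases, Hoxd1 on the log scale only, against 9.41% of all tested genes called higher. Hoxb2, a paralogue of Hoxa2, measured 7.49, 7.52 and 5.85 CPM in the PA2 libraries, 0, 0 and 0 in FNP, 0, 0 and 0.035 in Mx and 0.113, 0.12 and 0.0541 in Md. Hoxb3 stood at 3.23, 2.30 and 3.44 CPM in PA2 and at 0 to 0.0812 in the other libraries. Neither gene overlapped between PA2 and the others, and their log2 differences were 8.60 and 7.12. The models of both genes overlap the antisense transcript Hoxb3os, which had 17.3 CPM in PA2. Without strand, reads of Hoxb2, Hoxb3 and Hoxb3os cannot be told apart where these models overlap. Hoxd1 was the exception in pattern: Mx held more of it than PA2, with 3.37, 2.75 and 2.70 CPM against 1.27, 1.24 and 0.675, and 0.594, 0.959 and 1.27 in Md. Its mean level was 1.06 CPM in PA2 and 1.31 over the others, with FNP near 0. Its call against the mean of the logs (log2 1.08 ± 0.39 (SE), adjusted p = 0.0476) was lost with the replicate number as a block (adjusted p = 0.0589) and in 9 of 12 fits that left out 1 library, the lowest adjusted p among the 12 being 0.00237 and the highest 0.179. Hoxb1 was not called, with 6 counts over the 3 PA2 libraries (log2 3.25 ± 1.27 (SE), adjusted p = 0.079), and without FNP replicate 3 it was called (adjusted p = 0.0474).

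Genes of groups 4 and 5, which mark more posterior levels of the body, were detected in PA2 at low levels. Hoxc4 measured 3.48, 3.09 and 3.95 CPM in PA2, and Hoxc5 5.19, 3.58 and 4.18. Over the 3 PA2 libraries Hoxc4 had 337 counts against 3 in the other 9, a CPM ratio of 375 (95% interval 127 to 1830). Hoxc5 had 415 counts against 2, a CPM ratio of 694 (95% interval 191 to 5746), and these intervals cover counting error only. Hoxa4 had 13 counts in PA2 and 0 in the 9 others, which is at least 14.5-fold higher against a floor of 3 counts over the 9 libraries. Hoxa4, like Hoxa5, lies within the model of Hoxa3 on the same strand, which had 2956 counts in PA2. The few reads of Hoxa4 cannot be told apart from reads of Hoxa3 there. Hoxb4 had 56 counts against 1, and its PA2 libraries spread from 0.161 to 0.97 CPM. Hoxb5 had only 9 counts against 0, with PA2 replicate 2 at 0, and its call (adjusted p = 0.00253) was lost without PA2 replicate 3 (adjusted p = 0.319).

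From the HoxD cluster, Hoxd8, Hoxd3 and Hoxd4 were present in PA2 and, at lower levels, in Md. Hoxd8 (ENSMUSG00000027102, chromosome 2, 74704615 to 74707933), whose promoter is printed above, measured 8.98, 11.1 and 10.2 CPM in the PA2 libraries, 0.0266, 0.0258 and 0 in FNP, 0.339, 0.68 and 0.315 in Mx and 1.95, 2.22 and 3.52 in Md. Its level increased in the order FNP, Mx, Md, PA2, and PA2 exceeded Md by 1.97 on the log2 scale (adjusted p = 5.14e-05). Hoxd3 measured 5.25, 6.39 and 5.33 CPM in PA2 and 0.594, 0.54 and 0.406 in Md, and Hoxd4 1.21, 0.667 and 0.835 and 0.113, 0.27 and 0.108. The models of Hoxd3 and Hoxd4 overlap on one strand, so the split of reads between them is uncertain. Of 27 tested Hox genes of groups 5 to 13, 5 were called higher (Hoxa5, Hoxb5, Hoxc5, Hoxd8 and Hoxd9, named after their values were seen), against 9.41% of all genes called higher. Another 14 of the 27 had 0 counts in PA2, which allows a level of up to 0.0311 CPM.

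Per kilobase of exon, Hoxa2 held by far the highest level of the Hox genes in PA2, at 79.3 ± 3.35 CPM per kb (SD, n = 3). Hoxa3 followed at 4.67 ± 0.505, then Hoxd8 at 3.67 ± 0.381 and Hoxb2 at 2.10 ± 0.289. Hoxc5 (1.48 ± 0.279) and Hoxc4 (1.37 ± 0.169) did not differ beyond their spread, nor did Hoxb3 (0.995 ± 0.201) and Hoxd3 (0.977 ± 0.11). Reads from the overlaps of gene models named above can enter these levels.

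The set of Hox genes detected in PA2 was wider at E11.5 than 1 day earlier. At E10.5, 5 of the 39 tested Hox genes exceeded 1 CPM in PA2, and at E11.5 10 did. Those with 0 counts were 26 at E10.5 and 14 at E11.5. The E10.5 PA2 libraries were shallower, at 19477546 to 22962078 counts each against 27800541 to 30655582. A floor of 3 counts over the group was 0.0453 CPM at E10.5 and 0.0311 at E11.5. Among genes with 0 counts only at E10.5, Hoxd11, Hoxb7, Hoxc8, Hoxa6, Hoxa13, Hoxd13 and Hoxd10 had 1 to 6 counts at E11.5. At so few counts, depth and level cannot be told apart. The others had 21 to 970, and Hoxb8 went from 1 count to 0. Hoxa2 was already at 127, 125 and 124 CPM at E10.5, and Hoxb2 and Hoxb3 stood at 6.14 ± 0.962 and 3.46 ± 0.297 CPM then against 6.95 ± 0.955 and 2.99 ± 0.604 at E11.5 (mean ± SD, n = 3). In the HoxC and HoxD clusters the genes above 1 CPM at E11.5 were close to absent at E10.5. Hoxd8 went from 0 counts to 970 over the 3 libraries, at least 222.5-fold in CPM against a floor of 3 counts over the group. Hoxc5 went from 0 to 415 counts (at least 95.2-fold), Hoxd3 from 1 to 546 (ratio 375.8, 95% interval 67.2 to 14870.0) and Hoxd1 from 1 to 103 (ratio 70.9, interval 12.4 to 2827). PA2 libraries of the 2 stages were not tested against each other. The difference of PA2 from the other populations was tested between the stages, and no Hox gene was called. This was 0 of 12 genes in groups 1 to 4 and 0 of 27 in groups 5 to 13. With 26 of the 39 Hox genes at 0 counts in PA2 at E10.5, many folds of that stage are poorly determined. The lack of calls therefore does not show that the difference was the same at both stages.

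**Figure D1:**
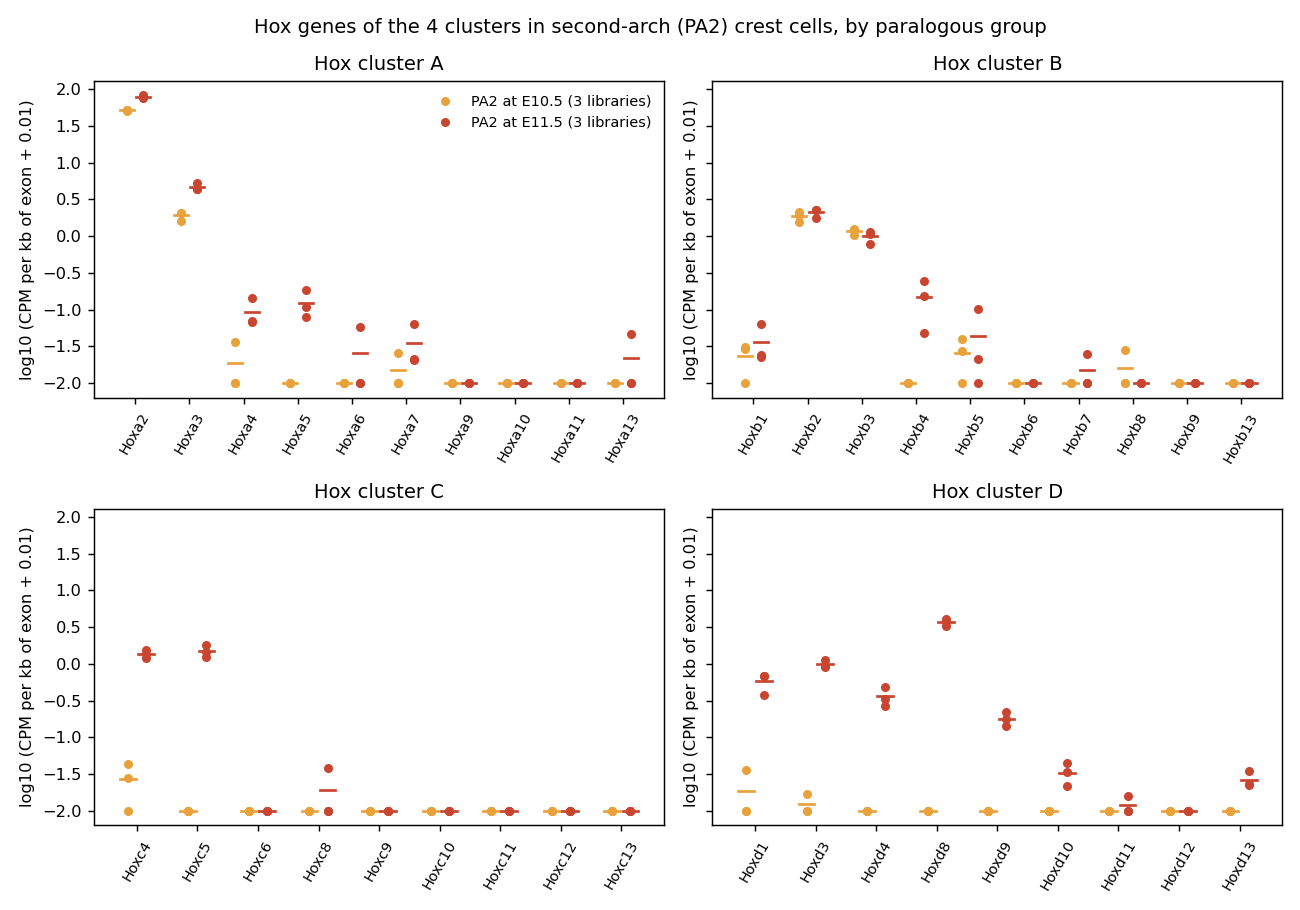
Levels of Hox genes in PA2, one panel per cluster, with the paralogous group on the horizontal axis and log10(CPM per kb of exon + 0.01) on the vertical axis; each point is 1 library of E10.5 or E11.5. Points of Hoxa2, Hoxa3, Hoxb2 and Hoxb3 are high at both stages, whereas those of Hoxc4, Hoxc5, Hoxd3 and Hoxd8 are at or near the bottom at E10.5 and above it at E11.5.

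The 3 PA2 libraries of genotype Control held the same leading genes with other levels. Hoxa2 stood at 268, 268 and 269 CPM there and Hoxa3 at 52.7, 50.4 and 58.4. Hoxd8 measured 2.13, 3.18 and 3.62 CPM there, below all wild-type PA2 libraries and overlapping the Md libraries. Hoxc4 measured 0.34, 0.912 and 1.19 CPM, and Hoxc5 0.851, 1.24 and 1.88. Both kinds of PA2 library carry the same age and subpopulation in the labels, and what sets their genotypes apart is not given there. With the Control libraries in place of the wild-type ones, 10062 genes were called against FNP, Mx and Md, 4877 higher and 5185 lower.

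Partners of Hox proteins were higher in PA2: 6 of 9 tested genes of the Meis, Pbx and Pknox families were called higher and 1, Meis3, lower. Over all tested genes, 9.41% were called higher and 8.27% lower. Meis1 measured 471, 506 and 520.0 CPM in the PA2 libraries, 49.6, 52.8 and 41.7 in FNP, 41.9, 36.7 and 54.6 in Mx and 85.7, 96.8 and 81.3 in Md, with a log2 difference of 3.13 ± 0.09 (SE), adjusted p = 4.68e-28. Meis2, its close relative, measured 974, 966 and 999.5 CPM in the PA2 libraries, 55.3, 61.2 and 52.3 in FNP, 379, 362 and 463 in Mx and 301, 299.8 and 282 in Md (log2 2.38 ± 0.07 (SE), adjusted p = 4.36e-27). Neither overlapped between PA2 and the other populations. Pbx3, of the other class of partner, differed less, with a log2 difference of 1.05.

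All 7 genes of a short list tied to Hoxa2 in the second arch were called, 5 higher and 2 lower, against 9.41% and 8.27% of all genes. Zfp703, which encodes a zinc-finger repressor, measured 101, 62.8 and 78.7 CPM in PA2 and 11.7 to 38.5 in the other 9 libraries (log2 2.11 ± 0.18 (SE), adjusted p = 1.14e-12). The Wnt receptor gene Fzd4 measured 75.4, 82.0 and 81.1 CPM against 10.7 to 39.5. Eya1, a transcriptional coactivator, went the other way, with 35.8, 27.5 and 28.4 CPM in the PA2 libraries, 216, 237 and 267 in FNP, 147, 150.0 and 144 in Mx and 75.8, 82.1 and 93.7 in Md (log2 -2.23 ± 0.10 (SE), adjusted p = 2.83e-21). Wnt5a was called lower against the mean of the others, yet its PA2 level of 253 ± 13.6 CPM lay beside that of Md (237 ± 38.3) and below that of FNP (1013 ± 22.1, mean ± SD, n = 3). The list includes Meis1 and Meis2.

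A set of 15 genes was chosen among called genes with a named symbol (clone, antisense and unnamed models left out) and 5 CPM or more. No overlap of libraries was a further condition, and the rank was by the lead of PA2 over its nearest neighbour. Beside Hox genes, the set took in transcription factors, receptors and genes best known from neurons. Dmrt2, a transcription factor of somite and skeletal development, measured 15.9, 17.4 and 14.2 CPM in the PA2 libraries, 0.213, 0.62 and 0.734 in FNP, 0.0283, 0 and 0.105 in Mx and 0.17, 0.18 and 0.379 in Md. Hmx1, a homeobox gene needed for the external ear and whose promoter is printed above, measured 17.8, 10.2 and 11 CPM in the PA2 libraries, 0.559, 0.439 and 0.592 in FNP, 0.679, 0.503 and 0.315 in Mx and 0.962, 0.749 and 0.731 in Md. PA2 exceeded the nearest other population by 4.90 and 3.99 on the log2 scale for these genes. Onecut2, another homeobox factor, measured 69.5, 70.8 and 69.5 CPM in PA2 and 2.82 to 7.21 elsewhere (log2 3.92 ± 0.13 (SE), adjusted p = 2.16e-26). Among genes of this set that act at the cell surface, the neighbours Lypd1 and Gpr39 stood together. Lypd1 measured 75.7, 83.9 and 78.3 CPM in PA2 and 1.51 to 5.47 in the 9 others, and Gpr39, a zinc-sensing receptor, 23.6, 25 and 21.9 and 0.651 to 1.70. The 2 gene models overlap on opposite strands, and without strand the reads of the overlap cannot be assigned. Nt5e, which encodes the ecto-enzyme CD73 that makes adenosine, measured 7.30, 8.97 and 6.75 CPM in PA2 and 0.544 to 1.75 elsewhere. Gad2, an enzyme of GABA synthesis, measured 8.42, 6.15 and 8.42 CPM in the PA2 libraries, 0.0532, 0.181 and 0.899 in FNP, 0.141, 0.0592 and 0.14 in Mx and 0.0849, 0 and 0 in Md. Unc13c, a gene of synaptic vesicle release, measured 9.69, 8.85 and 9.64 CPM in PA2 and 0 to 1.65 in the other libraries. The remaining members outside the Hox clusters, Sertm1, Tcerg1l and Fam5c, led their nearest population by 2.71 to 3.82 on the log2 scale.

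**Figure D2:**
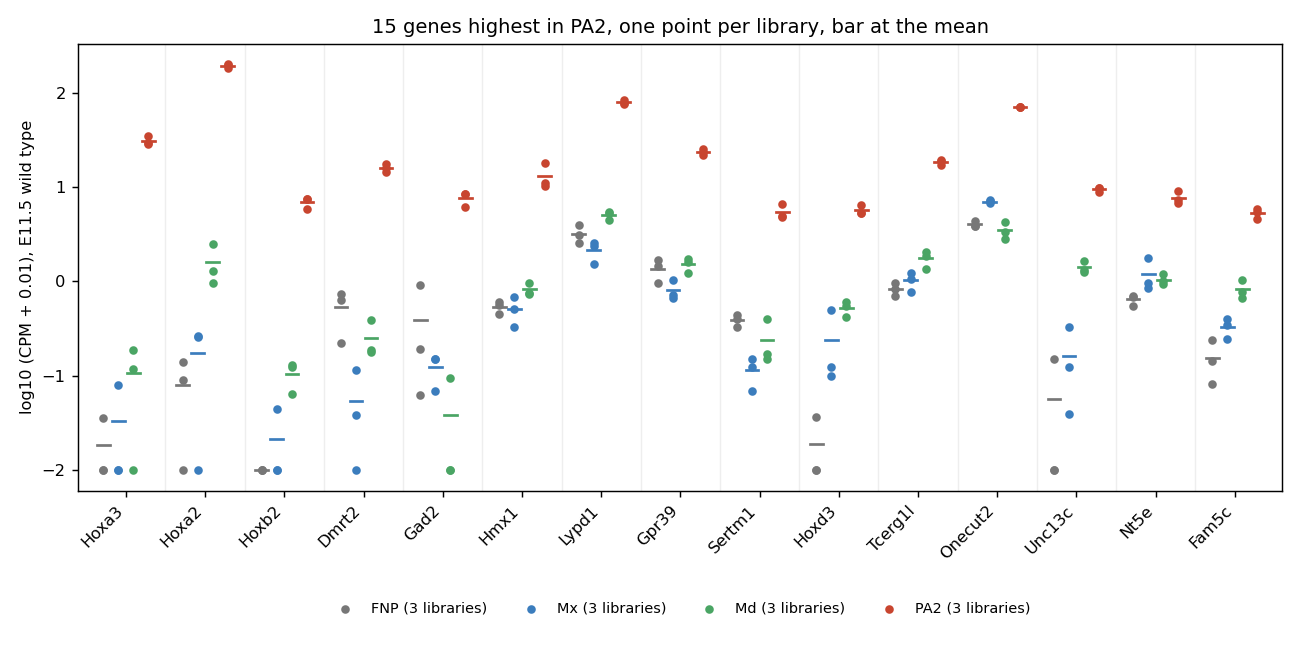
Levels of the 15 genes with the largest lead of PA2 at E11.5 among those with a named symbol, on a vertical axis of log10(CPM + 0.01), with 1 point per library and a bar at the mean of each group of 3. In each of the 15 genes the PA2 points lie above all points of FNP, Mx and Md, which was a condition of the choice.

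On the low side stood regulators of the frontonasal and first-arch face. Pax3, an early crest transcription factor, measured 0.683, 0.394 and 0.482 CPM in the PA2 libraries, 208, 228 and 207 in FNP, 143, 152 and 163 in Mx and 46.2, 47.3 and 54.1 in Md, the largest deficit of PA2 against its nearest neighbour in the named set (log2 -6.56 against Md). Alx1 and Alx4, homeobox genes needed for the midface, were also among the 15. Alx1 measured 1.09, 0.939 and 1.54 CPM in the PA2 libraries, 347, 342 and 358 in FNP, 69.4, 57.4 and 66.6 in Mx and 15.8, 22 and 29.7 in Md. Alx4 measured 5.31, 6.0 and 5.17 CPM in PA2 and 107 to 298 elsewhere, and in both genes the level descended in the order FNP, Mx, Md, PA2. Tfap2c, of the AP-2 family, measured 0.342, 0.515 and 0.482 CPM in PA2 and 13.2 to 26.4 in the other libraries. Pax1, a paired-box gene of pharyngeal and skeletal development, measured 1.52, 2.24 and 2.06 CPM in the PA2 libraries, 40.0, 37.4 and 52.4 in FNP, 109, 101 and 102 in Mx and 18.1, 19.2 and 28.1 in Md. Hey2, a target of Notch signalling, stood at 0.342, 0.515 and 0.643 CPM against 20.9 to 85.2, highest in Mx. Fst, a secreted antagonist of activin, measured 1.43, 0.848 and 0.707 CPM against 11.8 to 20.0. Tnn, an extracellular matrix tenascin, was nearly absent in PA2, with 0.0932, 0.0606 and 0 CPM against 3.19 to 9.70. Lrrn3 and Dlg2, both known from neurons, were lower than the nearest population by 2.96 and 2.91 on the log2 scale. No library of PA2 reached the lowest other library in any of the 15, which was a condition of their choice.

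**Figure D3:**
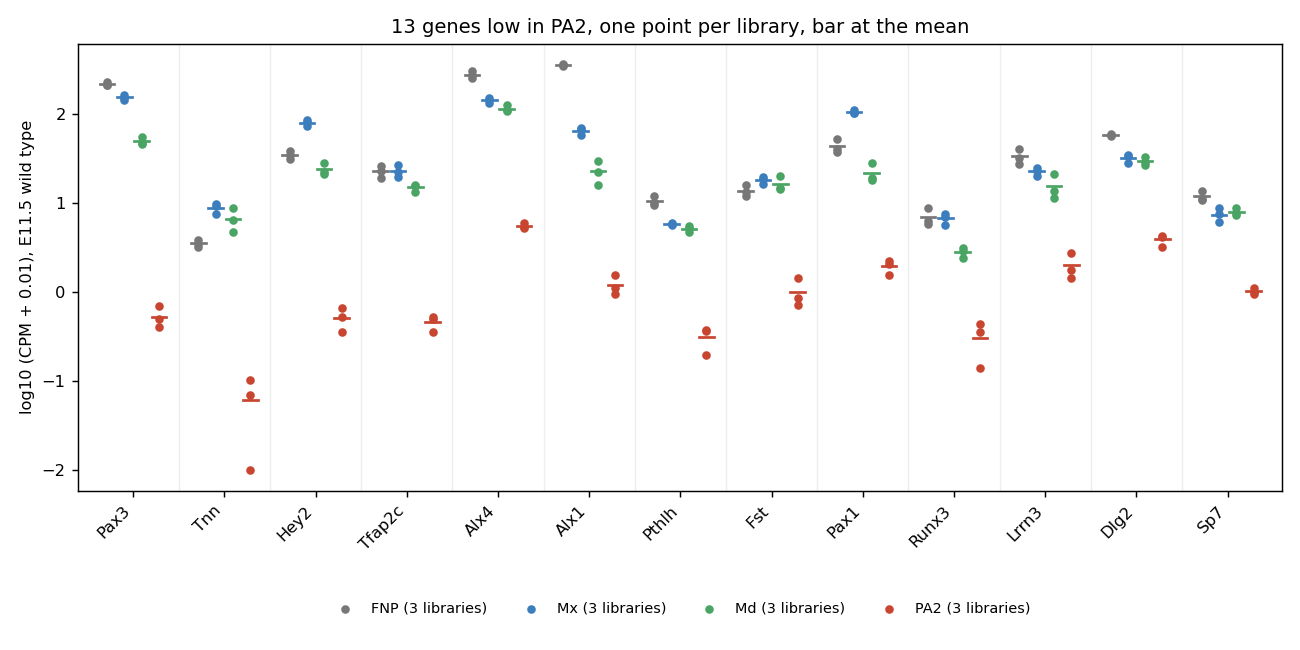
Levels of 13 of the 15 genes with the largest deficit of PA2 at E11.5 among those with a named symbol, drawn as log10(CPM + 0.01) with 1 point per library and a bar at the mean of each group of 3. The PA2 points lie below all others in each gene drawn, which was a condition of the choice. The FNP or Mx points are the highest in most of these genes.

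Of 10 frontonasal regulators, 8 were called lower in PA2 and 1 higher (median log2 difference -3.67, against -0.02 over all genes tested). Shares over all genes were 8.27% lower and 9.41% higher. Tfap2b, an AP-2 factor, measured 1.71, 1.15 and 1.22 CPM in the PA2 libraries, 295, 345 and 272 in FNP, 16.7, 14.3 and 15.7 in Mx and 7.75, 9.11 and 9.88 in Md, so that its high level was in FNP. Pax7, a paralogue of Pax3, stood at 0.559, 0.364 and 0.707 CPM in PA2, which overlaps Md at 0.198, 0.27 and 0.406, while FNP held 150.3, 154 and 175. Gata2 was also highest in FNP and, unlike Pax7, without overlap between PA2 and the others, with 128, 126 and 158 CPM in FNP and 0.435, 0.515 and 0.289 in PA2.

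Among 12 regulators of the first arch and oral region, 8 were lower in PA2 and 2 higher (median log2 -1.52), against 8.27% and 9.41% of all genes. Lhx6, a LIM homeobox gene of the oral first arch, measured 9.75, 11.52 and 9.35 CPM in PA2, above FNP (1.81, 3.90 and 1.33) and below Mx (168, 167 and 187) and Md (67.0, 72.6 and 77.6). Its relative Lhx8 stood at 28.0, 31.2 and 23.1 CPM in PA2 and its difference from FNP did not pass the test (log2 -0.06, adjusted p = 0.84). Six2 measured 11.4, 9.27 and 10.1 CPM in PA2 and 34.6 to 105 in the other libraries. Both members called higher, Pitx1 and Barx1, were so on the log scale only, and stood below Md. Mean levels were 2.70 CPM in PA2 and 16.1 over the others for Pitx1, and 30.1 and 37.5 for Barx1. Md held 48.9, 44.5 and 50.2 CPM of Pitx1, a gene of the mandible and hindlimb, and PA2 3.26, 2.27 and 2.57. For Barx1 the values were 67.2, 50.1 and 53.1 in Md and 36.9, 26.5 and 26.8 in PA2.

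Genes that pattern the arches from dorsal to ventral split by family: of 20, 9 were higher in PA2 and 7 lower. The shares over all genes were 9.41% and 8.27%. The 6 Dlx genes of the list, homeobox genes that stack in the arches, were all called higher. Dlx1 measured 178, 188 and 164 CPM in the PA2 libraries, 0.532, 0.594 and 0.379 in FNP, 59.5, 66.6 and 53.6 in Mx and 134, 117 and 117 in Md, and PA2 exceeded Md by 0.53 (adjusted p = 0.00204). Dlx6 measured 27.1, 26.0 and 28.8 CPM in PA2, 15, 15.5 and 13.7 in Md and at most 2.19 in FNP and Mx. Dlx3 measured 95.2, 91.8 and 82.2 CPM in PA2 and 35.3, 27.9 and 31 in Md, and Dlx4 16.1, 13.9 and 16.1 and 5.01, 5.81 and 6.47. For Dlx5 the PA2 libraries also lay above the others, but the difference from Md alone (0.34 on the log2 scale) did not pass the test (adjusted p = 0.176). Hand2, which sets ventral identity, was a case of sharing: 9.44, 6.94 and 6.75 CPM in PA2, 21.1, 19.2 and 24.8 in Md, and at most 0.105 in FNP and Mx. It was called higher against the mean of the others and lower against Md. The nuclear receptor gene Nr2f1 measured 198, 197 and 193 CPM in PA2 and 27.1 to 145 elsewhere. Jag1, a Notch ligand of dorsal arch crest, was lower, at 11.3, 12.2 and 12 CPM against 23.7 to 36.9, and so were Hey1 and Hey2.

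Of 26 tested genes of cartilage and bone, 7 were higher in PA2 and 10 lower, against 9.41% and 8.27% of all genes. Runx2, the regulator of the bone lineage, measured 39.0, 38.7 and 40.4 CPM in the PA2 libraries, 223, 207 and 240.5 in FNP, 289, 291 and 286 in Mx and 149.7, 152 and 156 in Md, with log2 -2.45 ± 0.16 (SE), adjusted p = 5.03e-16. Sp7, which acts after Runx2, measured 1.09, 1.00 and 0.932 CPM in PA2 and 6.11 to 13.7 elsewhere, and Alpl, bone alkaline phosphatase, 2.02, 1.73 and 1.45 and 5.38 to 17.2. Runx3, with a promoter printed above, stood at 0.342, 0.424 and 0.129 CPM against 2.4 to 8.64. Pthlh, which encodes a hormone-like brake on cartilage maturation, measured 0.186, 0.364 and 0.353 CPM in PA2 and 4.64 to 12 in the other libraries. The cartilage regulator Sox9 was not called (0.16 ± 0.09 (SE), adjusted p = 0.243): PA2 held 83.8, 94.8 and 84.7 CPM, between Mx (36.1, 28.0 and 24.5) and FNP (187, 214 and 194). Col2a1, the main cartilage collagen, was not called either (log2 0.25 ± 0.09 (SE), adjusted p = 0.0556). Col9a1 was higher, at 77.2, 85.4 and 74.2 CPM against 7.34 to 54.8, and so was the joint factor Gdf5, at 6.27, 6.48 and 6.10 against 0.31 to 2.84. Spp1, osteopontin, measured 4.47, 11 and 3.69 CPM in PA2 and 2.97, 2.43 and 0.947 in Md, with no more than 0.0946 in FNP and Mx, and PA2 replicate 2 was the highest library.

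Of 16 genes of tendon and connective tissue, 6 were higher and 4 lower, against 9.41% and 8.27% of all genes. Osr1, a marker of connective tissue precursors, was shared with Md: PA2 held 122, 87.7 and 98.1 CPM, Md 104, 96.8 and 129 and FNP 2.13, 2.61 and 3.90. Tbx5 had the same pattern, with 2.11, 2.39 and 2.51 CPM in PA2 and 3.48, 3.27 and 3.33 in Md. Tnmd, a marker of mature tendon, had 3 counts in PA2 against 177 in the 9 others, 0.213 to 1.13 CPM per library.

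Of 21 genes of the FGF pathway, 5 were higher in PA2 and 12 lower, against 9.41% and 8.27% of all genes. Spry4, a feedback inhibitor of the pathway, measured 16.6, 12.3 and 15.7 CPM in the PA2 libraries, 52.2, 62.2 and 56.3 in FNP, 29.5, 32.8 and 24.5 in Mx and 28.6, 23.2 and 23.7 in Md. Dusp6, a phosphatase of the pathway, measured 26.1, 23.6 and 25.8 CPM in PA2 and 33.6 to 83.9 elsewhere, and Etv4, a target transcription factor, 1.77, 2.09 and 2.70 and 3.28 to 9.76. Spry2, of the same family, went the other way (log2 1.09 ± 0.20 (SE), adjusted p = 3.19e-05). Among the ligands, Fgf10 was lower, at 10.9, 10.9 and 11.2 CPM against 24.5 to 34.7, whereas Fgf7 was higher, at 12.5, 11.8 and 10.3 against 0.645 to 3.90.

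In the hedgehog list 9 of 16 genes were lower in PA2 and 2 higher, against 8.27% and 9.41% of all genes. Gli1, a direct readout of the pathway, measured 12.3, 11.3 and 11.3 CPM in the PA2 libraries, 24.7, 21.9 and 22.5 in FNP, 37.2, 35.4 and 33.7 in Mx and 33.2, 36.0 and 26.2 in Md. The receptor gene Ptch1, itself a target, measured 71.3, 66.5 and 69.6 CPM in PA2 and 89.1 to 139 in the others. Foxf1 and Foxf2, forkhead genes downstream of hedgehog in the face, stood at 2.26 ± 0.465 and 2.47 ± 0.769 CPM in PA2 (mean ± SD, n = 3), with highest levels in Md, 22.4 ± 1.88 and 20.0 ± 2.51. The model of Foxf1 overlaps a same-strand transcript that also covers Foxc2. Foxc2 was higher against the mean of the others but level with Md, at 10.7, 13.8 and 10.8 and 14.5, 12.2 and 11.4 CPM.

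In the BMP and TGF-beta pathway 17 of 38 genes were lower and 8 higher, against 8.27% and 9.41% of all genes. Bmp4 measured 19.4, 18.3 and 16.7 CPM in PA2, 28.8, 32.0 and 35.9 in Md, 47.6, 47.7 and 45.7 in Mx and 118, 93.4 and 124 in FNP. Its targets Msx1 and Msx2 were lower too: Msx2 stood at 5.13, 5.03 and 4.18 CPM in PA2 and 10.0 to 65.7 elsewhere, whereas Msx1 in PA2 (64.3, 62.3 and 51.8) overlapped Md (50.8, 49.1 and 73.8). Inhba, an activin subunit, measured 5.59, 5.55 and 6.04 CPM against 14.7 to 46.5, and its antagonist Fst was lower in the same libraries.

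The Wnt pathway was divided, with 12 of 40 genes higher and 11 lower, against 9.41% and 8.27% of all genes. Secreted antagonists went either way: Dkk2, Frzb, Sfrp1 and Sfrp2 were higher, by 0.63, 0.75, 0.43 and 1.10 on the log2 scale, and Dkk1, Dkk3 and Wif1 lower. Dkk1 measured 1.68, 2.79 and 1.77 CPM in PA2 and 11.3 to 46.2 elsewhere, and Wif1 3.14, 2.58 and 2.41 and 4.67 to 30.8. Lef1, a transcription factor that carries the Wnt signal and is also its target, was lower, at 86.8, 77.7 and 83.7 CPM against 118 to 461. Receptor gene Fzd5 was higher, with 12.8, 13.5 and 11.9 CPM in PA2, 7.44, 7.34 and 9.88 in Md and at most 2.22 in FNP and Mx. Wnt2, a ligand, measured 3.79, 2.79 and 2.54 CPM in PA2 and 0.103 to 1.61 in the other libraries.

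Of 18 genes of the retinoic acid pathway, 5 were higher and 4 lower, against 9.41% and 8.27% of all genes. Aldh1a3, an enzyme that makes retinoic acid, measured 11.4, 13.6 and 12.3 CPM in PA2 and 1.60 to 7.24 elsewhere. Stra6, a receptor for retinol uptake, measured 74.0, 63.1 and 66.0 against 34.4 to 60.2, a small lead (log2 0.67 ± 0.13 (SE), adjusted p = 0.000188). Cyp26a1, which degrades retinoic acid, was called higher on the log scale but stood below Md, at 2.55, 1.39 and 2.54 and 6.62, 5.90 and 4.87 CPM. The Notch and endothelin list had 4 of 22 genes higher and 5 lower, to be read against the same shares of all genes. Mef2c, a transcription factor downstream of endothelin in the arches, measured 8.79, 9.42 and 9.74 CPM in PA2 and 24.2 to 65.1 in the other libraries.

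Guidance and adhesion genes divided 11 higher to 11 lower among 41 tested identifiers of 40 genes. For this list and those that follow, the shares over all tested genes were 9.41% higher and 8.27% lower. Cxcl12, a chemokine that directs migrating cells, measured 476, 461 and 485 CPM in the PA2 libraries, 119, 124 and 108 in FNP, 206, 194 and 197 in Mx and 249, 244 and 239 in Md (log2 1.41 ± 0.06 (SE), adjusted p = 9.02e-22). Ntn1, a secreted axon guidance cue, was higher, at 53.8, 34.7 and 42.9 CPM against 8.83 to 19.7, and its receptor gene Unc5b was lower, at 7.33, 7.70 and 7.04 against 16.2 to 71.5. In the T-box and Iroquois list 4 of 15 genes were higher and 5 lower. Irx2 measured 34.0, 34.1 and 31.9 CPM in the PA2 libraries, 0.453, 0.361 and 0.497 in FNP, 2.97, 2.81 and 2.70 in Mx and 7.19, 6.65 and 6.77 in Md, and Irx1, its neighbour, 11.1, 8.09 and 10.2 CPM in PA2 and 0.129 to 3.37 elsewhere. Tbx3 went the other way, with 26.2, 25.2 and 24.3 CPM in PA2 and 90.6 to 217 in the others, and Tbx2 with 16.5, 15.9 and 14.9 and 33.5 to 114. Forkhead genes were 5 higher and 5 lower of 20.

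Most markers of dividing cells were not called: of 22 proliferation genes 2 were higher (Ccnd1 and Ccnd2) and 2 lower (Ccne1 and Myc). The other 18, among them the genes of DNA replication and mitosis, were not called. These counts are near the shares over all tested genes, 9.41% higher and 8.27% lower. Mki67 measured 1042, 1240.1 and 1051 CPM in PA2 and 1074 to 1355 elsewhere (log2 -0.12 ± 0.11 (SE), adjusted p = 0.525). Ccnd1, cyclin D1, was higher against the mean of the others and level with Md, at 503, 461 and 476 and 470.0, 407 and 473 CPM, whereas Myc was lower, at 13.6, 12.9 and 11.1 against 18.6 to 38.2. Of 12 immediate early genes, which also respond to tissue dissociation, 5 were higher. Of these calls, Fosb and Egr2 were lost without PA2 replicate 2 (adjusted p = 0.239 and 0.541), Atf3 without PA2 replicate 1 (adjusted p = 0.14), and Egr2 also in 6 other fits without 1 library. Jun led in level, at 75.0, 84.5 and 74.6 CPM in PA2 against 28.0 to 59.7. Fos was not called, and its libraries overlapped, with 12.5, 30.9 and 9.54 CPM in PA2 and 9.35 to 17.3 in the others. PA2 replicate 2 held the highest Fos level of the 12 libraries, and the part of dissociation in these levels was not tested.

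**Figure D4:**
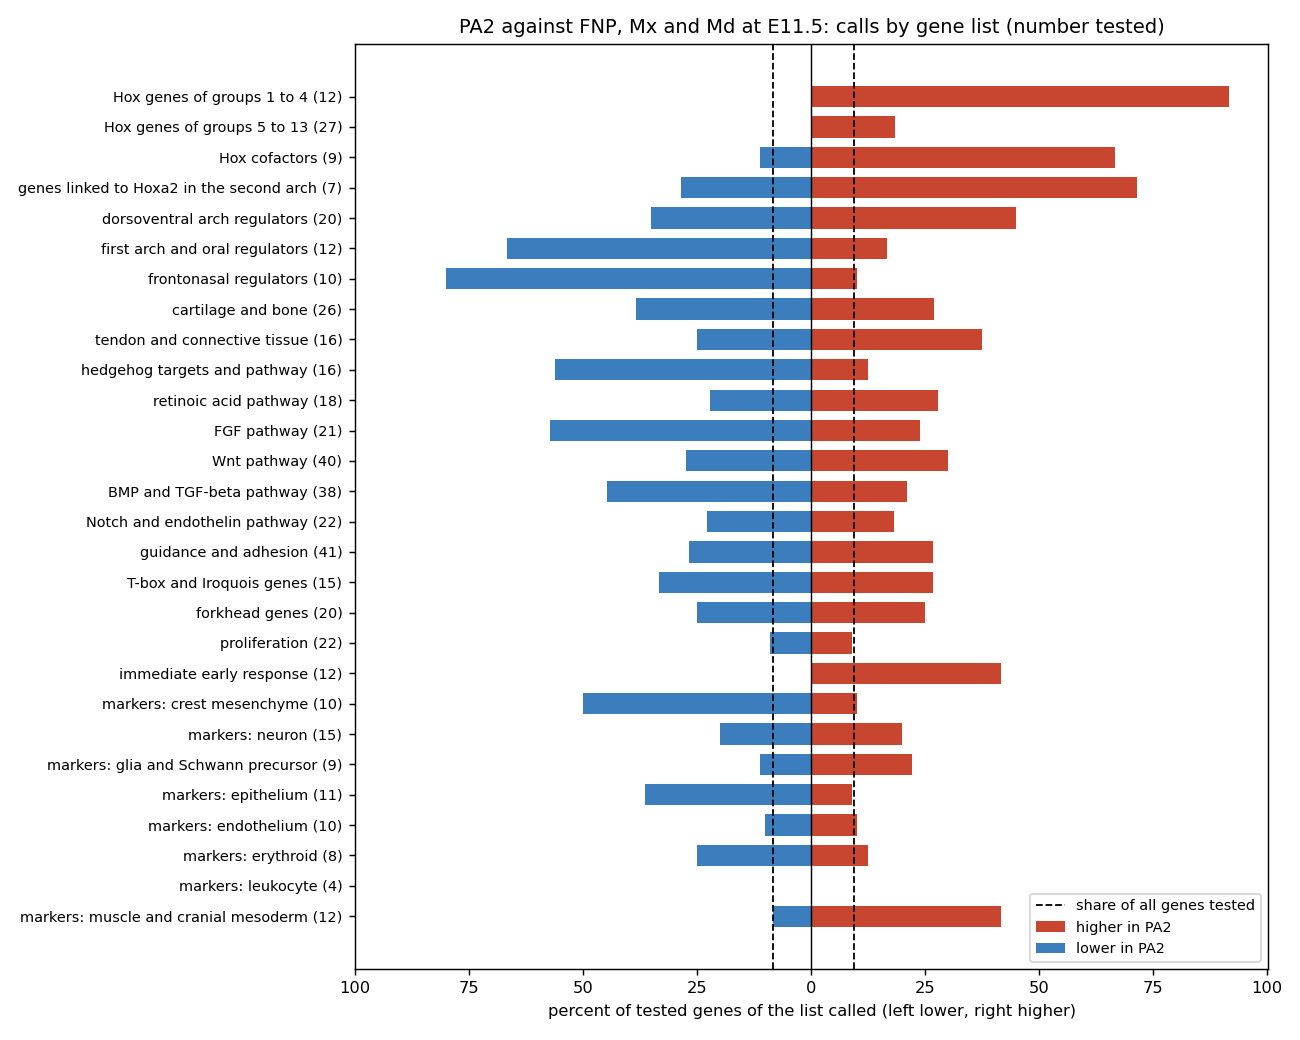
Share of the tested genes of each list called higher or lower in PA2 at E11.5, in percent, with dashed lines at the share over all tested genes (9.41% higher, 8.27% lower). The Hox genes of groups 1 to 4 reach the highest share on the higher side, and the frontonasal and first-arch regulators, FGF and hedgehog lists lie well past the line on the lower side.

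The sorted cells held crest mesenchyme in every group, with the summed level of 10 markers at 3052 to 3255 CPM in PA2 and 3042 to 3856 in the others. Prrx1 stood at 963, 1064 and 1027 CPM in PA2 and Twist1 at 219.9, 276 and 219. Of the 10 markers, 1 was called higher (Pdgfra, log2 0.95) and 5 lower, against 9.41% and 8.27% of all tested genes. Neuronal markers summed to 180.4 to 216 CPM in PA2 and 89.6 to 159 elsewhere, with 3 of 15 higher and 3 lower. That sum was carried by the neurofilament genes Nefl and Nefm. Nefl measured 89.3, 70.4 and 94.0 CPM in the PA2 libraries, 2.98, 2.87 and 3.41 in FNP, 8.54, 5.74 and 8.19 in Mx and 11.3, 12.7 and 16.6 in Md, and Nefm 57.7, 42.5 and 55.0 CPM in PA2 against 1.63 to 11.8. Tubb3 was lower in PA2, at 3.82, 4.21 and 3.44 CPM against 7.52 to 16.6, Stmn2 and Elavl3 were lower against the mean of the others, and Prph was at 0, 0.0606 and 0. The call of Elavl3 was lost without PA2 replicate 1 or 3 (adjusted p = 0.0687 and 0.109). The Nefl and Nefm models overlap on opposite strands, so reads cannot be assigned to one of them there.

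Other cell types left low levels. The counts of called markers below stand beside 9.41% higher and 8.27% lower over all tested genes. Glial markers summed to 21.2 to 22.7 CPM in PA2 and 13.6 to 39.6 in the others, with 2 of 9 higher and 1 lower, and Sox10 at 2.05, 1.52 and 1.83. Epithelial markers summed to 7.20 to 10.6 CPM against 6.57 to 24.3, with 1 of 11 higher and 4 lower, and endothelial markers to 14.6 to 16.2 against 7.43 to 26.0, with 1 of 10 higher and 1 lower. Of 12 erythroid markers 8 were tested, without the globin genes Hba-a1, Hba-a2, Hbb-bt and Hbb-bs. These 8 summed to 28.1 to 44.7 CPM against 26.8 to 80.6, with 1 of 8 higher (Alas2) and 2 lower (Hbb-bh1 and Hba-x). In the 12 fits without 1 library, the call was lost in 5 for Alas2, 8 for Hbb-bh1 and 3 for Hba-x. Of 10 leukocyte markers 4 passed the filter on low counts, and these 4 summed to 3.45 to 5.16 CPM against 3.67 to 4.90. Muscle and cranial mesoderm markers summed to 4.15 to 12.1 CPM in PA2, 8.89 to 14.9 in Md and 3.08 to 6.72 in FNP and Mx. Of these 12, 5 were higher against the mean of the others and 1 lower. Among the higher ones, the call of Msc was lost without PA2 replicate 1 (adjusted p = 0.223). That of Tcf21 was lost without PA2 replicate 3 (adjusted p = 0.0749). Actc1, a sarcomeric actin, measured 7.67, 1.94 and 6.88 CPM in PA2 and 4.75, 6.65 and 9.34 in Md, and the libraries of both arches overlapped. No tested marker of these lists was at 0 in all 3 PA2 libraries, and the part of these cells in the gene differences was not tested.

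At E10.5, PA2 was higher than the mean of FNP, Mx and Md in 1150 genes (5.59%) and lower in 1016 (4.94%). Of the genes higher at E11.5, 682 were also higher at E10.5, which is 35.3% of the E11.5 set and 59.3% of the E10.5 set. For lower genes the overlap was 563, or 33.1% and 55.4%. Opposite calls were few: 50 genes were higher at E11.5 and lower at E10.5, and 54 the reverse. Pax3 was at 0.44 ± 0.25 CPM in PA2 and 76.0 on average in the others at E10.5 (log2 -6.75 ± 0.27 (SE), adjusted p = 3.75e-23), and Lypd1 at 57.9 ± 5.53 and 3.42 (log2 4.93 ± 0.16 (SE), adjusted p = 9.53e-26).

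The difference between PA2 and the others itself differed between the stages for 936 genes (4.55%), more positive at E11.5 for 478 (2.32%) and more negative for 458 (2.23%). Such a change can lie in PA2, in the other populations or in both, so a more negative difference need not be a fall in PA2. Onecut2 was not called at E10.5, with 5.22 ± 1.27 CPM in PA2 (log2 -0.05 ± 0.17 (SE), adjusted p = 0.924), and reached a log2 difference of 3.92 at E11.5. The change between stages was 3.98 ± 0.22 (SE), adjusted p = 1.26e-16. Unc13c changed by 4.82 ± 0.56 (SE), adjusted p = 3.9e-08. Nefl was lower in PA2 at E10.5 (log2 -1.31) and higher at E11.5, a change of 4.95 ± 0.28 (SE), adjusted p = 1.26e-16. Among the largest changes the urea transporter gene Slc14a1 moved by 5.35 and Spp1 by 3.74.

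In the other direction, Pthlh moved from a log2 difference of 1.77 at E10.5, where its PA2 level was 0.279 ± 0.136 CPM, to -4.47 at E11.5 (change -6.24 ± 0.63 (SE), adjusted p = 1.7e-09). At E11.5 its PA2 level was still 0.301 CPM, against 7.14 CPM on average in the others. Hey2 moved by -5.13 ± 0.48 (SE), adjusted p = 2.17e-10. Mybpc1, a myosin-binding protein gene, stood at 7.10 ± 0.881 CPM in PA2 at E10.5 against 0.109 in the others, and at 2.42, 3.45 and 3.25 against 0.749 to 3.68 at E11.5, where its call was lost without PA2 replicate 2 or 3 (adjusted p = 0.132 and 0.115). Chemokine gene Cxcl14 was higher in PA2 at E10.5 (log2 3.28) and lower at E11.5 (-0.97). Cntn6, a neural adhesion gene, changed by -5.15 and Chodl by -4.27.

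Within some lists most of the changes between the stages had one direction. Of 20 dorsoventral regulators, 11 had a more negative difference at E11.5 and 2 a more positive one, against 2.23% and 2.32% of all genes. Hand1 was among them, with a log2 difference of 2.92 at E10.5 and -0.77 at E11.5, the latter not called. In the hedgehog list 8 of 16 became more negative and 2 more positive. Gli1 was higher in PA2 at E10.5 (log2 0.54 ± 0.15 (SE), adjusted p = 0.0126) and lower at E11.5 (-1.35), and Ptch1 went from 0.53 to -0.68. Of 26 cartilage and bone genes, 10 became more negative and 2 more positive. Runx2 went from -0.82 to -2.45, and Alpl from -0.24, not called, to -2.46. The retinoic acid list went the other way, with 5 of 18 more positive, among them Aldh1a2, Aldh1a3 and the receptor gene Rarb. Rarb went from -2.11 to -0.52. Tbx22, a T-box gene of the palate, and Irx3 also became more positive, from -5.71 to -2.29 and from -2.47 to -0.34, the last of these not called at E11.5.

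**Figure D5:**
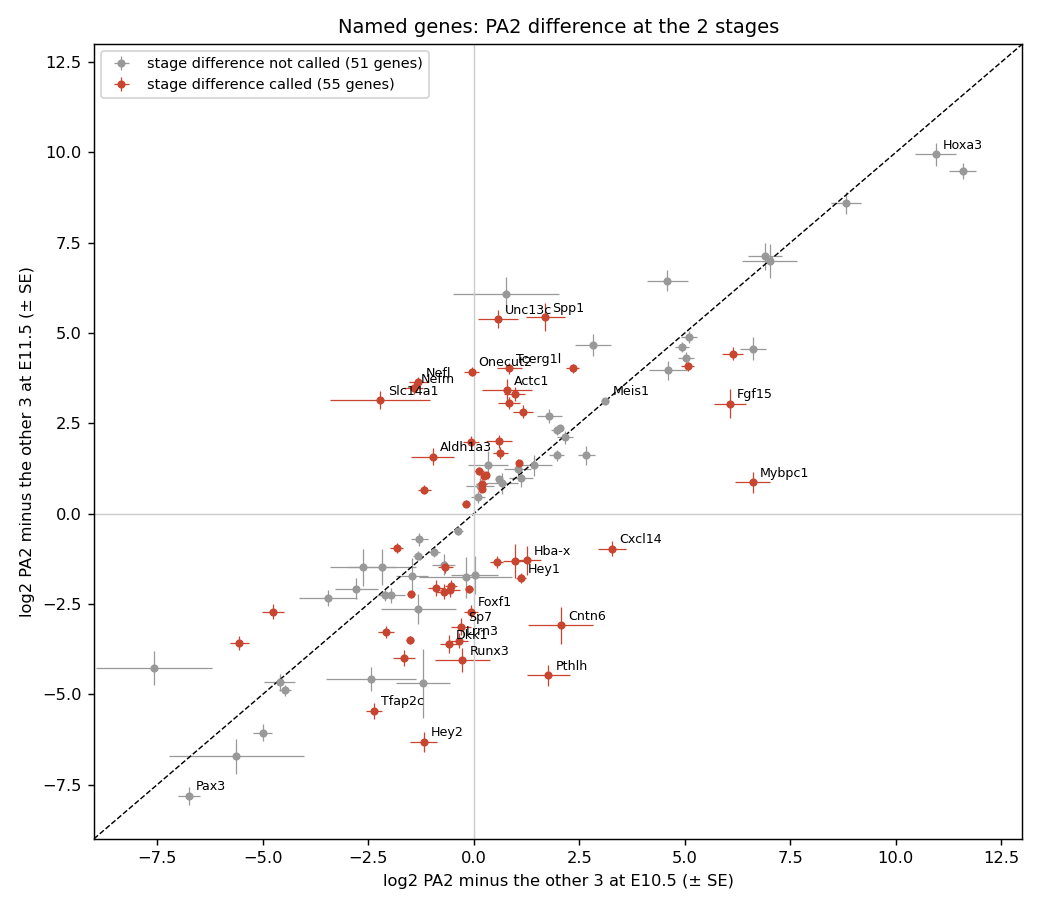
Log2 difference of PA2 from the other 3 populations at E10.5 (horizontal) and at E11.5 (vertical) for the 106 named genes with at least 20 counts at E10.5, with bars of 1 SE. The 55 genes whose difference itself differed between the stages are drawn apart from the 51 for which it was not called, and Onecut2, Nefl and Nefm lie far above the diagonal while Hey2 and Pthlh lie far below it.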

How the data were processed

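The authors deposited 1 table of raw read counts per gene (38215 genes, 47 libraries, 16 groups) made from unstranded 50 bp single-end reads of total RNA, per the labels' protocols. Per the submitters' processing notes the builds are GRCm38 and mm10 and the reads were converted with bcl2fastq 2.17. Aligner, counter and gene annotation were not given in the sources used here. In that table the names of 22 columns are repeated with identical values, and each library was used once. All 47 libraries were fitted together with edgeR 4.0.16 in R 4.3.3: TMM scaling, filterByExpr (20560 genes kept), 1 mean per group, 31 residual degrees of freedom, quasi-likelihood test, Benjamini-Hochberg adjustment over all tested genes. The main contrast was PA2 minus the mean of FNP, Mx and Md. Standard errors came from the fold and its F statistic. The script was tested on simulated counts.

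Genes were named by rule: Hoxa2 and Hoxa3, Hox genes of groups 1 to 4, the 15 genes standing furthest above and below the nearest population (called, 5 CPM or more, no overlap of libraries, with a named symbol: clone, antisense and unnamed models left out), up to 4 called members of largest change per list, and 6 genes each way for the stage difference. A few genes that the rule names are not reported here. Further list members were named after their values were seen. The members and lists were chosen with earlier results of these data known. Alternatives were RLE scaling, other low-count filters, DESeq2 1.42.0, mitochondrial genes left out, a fit on 12 libraries with and without the replicate number as a block, each library left out, and the Control PA2 libraries. Promoters came from a RefSeq table (GRCm38.p6). Counting intervals (95%, exact) and floors (3 counts) cover counting error only.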

Additional observations from a re-analysis of the deposited data

Results flagged for a closer look

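For 53 of the genes that were named by rule and are reported here, the difference between PA2 and the other 3 populations was not the same at E11.5 and E10.5, by edgeR's test of the difference of the 2 contrasts (adjusted p under 0.05 over 20560 genes). Values are the log2 difference at E11.5 minus that at E10.5. It was more positive at E11.5 for 25 of them. Genes known from neurons, glia, muscle and the cell surface were Slc14a1 5.35, Nefl 4.95, Nefm 4.90, Unc13c 4.82, Actc1 2.64, Nt5e 2.24, Ephb1 1.41, Mbp 0.63. Transcription factors and their partners were Onecut2 3.98, Tcerg1l 3.18, Irx1 2.35, Osr1 2.06, Six2 2.04, Irx2 1.68, Foxc2 1.04, Msx1 0.87, Pbx3 0.79, Jun 0.78. Secreted factors, enzymes, receptors and cyclins were Spp1 3.74, Aldh1a3 2.55, Stra6 1.84, Fgf7 1.66, Ccnd1 1.05, Ccnd2 0.46, Cxcl12 0.33.

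The difference was more negative at E11.5 for the other 28. Transcription factors and coactivators among them were Eya1 -0.75, Dlx3 -0.98, Foxf2 -1.45, Tfap2a -1.47, Hmx1 -1.72, Gli1 -1.89, Mef2c -1.98, Foxf1 -2.65, Sp7 -2.82, Hey1 -2.90, Tfap2c -3.10, Runx3 -3.79, Hey2 -5.13. Secreted factors were Fgf10 -0.80, Wif1 -1.55, Fst -2.34, Fgf15 -3.02, Dkk1 -3.02, Cxcl14 -4.25, Pthlh -6.24. Surface, scaffold and sarcomere genes were Unc5b -1.17, Dlg2 -1.19, Lrrn3 -3.16, Chodl -4.27, Cntn6 -5.15, Mybpc1 -5.74. The embryonic globin genes Hbb-bh1 and Hba-x, markers of red blood cells, had -2.30 and -2.55. Hey1 was called higher in PA2 at E10.5 (log2 1.11) and lower at E11.5 (-1.79). The PA2 and other libraries of the 2 stages share no sample, and stage and collection cannot be told apart.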

How the results depend on the processing

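The main count of 3635 called genes was 3522 with RLE scaling, 3454 with no low-count filter, 3293 with a filter at 1 CPM, 3536 without mitochondrial genes, 3740 with DESeq2 and 3629 in a fit on the 12 libraries alone. With the Control PA2 libraries in place of the wild-type ones it was 10062 (4877 higher, 5185 lower), and the count of genes with no overlap of libraries was 6021 (2751 and 3270) in place of 1709; the cause was not tested. In that setting Erbb3 (0.37, adjusted p = 0.0498), Krt8 (0.030, adjusted p = 0.947) and Cldn6 (1.20, adjusted p = 0.00228) changed direction. Leaving out 1 library at a time gave 2491 (without PA2 replicate 3) to 3839 genes in the main contrast, 1609 to 2000 without overlap, 4037 to 5599 against FNP, 2372 to 2948 against Mx, 1135 to 1645 against Md, 1471 to 2196 at E10.5 and 716 to 941 for the stage difference. Of 124 named genes 123 were called. In at least 1 of 12 such fits 18 lost the call, and 1 (Hoxb1) gained it. In every fit that tested them, 102 kept direction and call (10 of the 124 were not tested in all settings). Among the 102 were all 30 of the genes highest or lowest in PA2, which had been chosen from the same libraries as called and without overlap. Hoxd1, Egr2, Hbb-bh1, Krt8, Cldn6, Ccnd2, Alas2 and Lfng lost the call in the most settings.

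Of 18 pairs of same-numbered libraries 5 had a correlation of deviations over 0.1 (range -0.104 to 0.297), and 7 of 12 libraries correlated best with their own number. As not every pair exceeded 0.1, the main fit did not take the numbers as pairing the samples. That rule is strict and is not a test of pairing. With the replicate number as a block, 3597 genes were called in the main contrast, 1752 without overlap, 5554 against FNP, 2956 against Mx and 1647 against Md. Genes with few counts, such as Hoxa4 and Hoxb5, are limited by depth, and 3 libraries per group limit the precision of all others.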
